A study of Mus musculus with 14 samples.

Results

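P5 and P6, a pair of cell populations sorted from the pregnant mouse mammary gland, were set against each other across all genes. The comparison holds 4 of the 14 arrays of the series, 2 of P5 and 2 of P6 from pregnant mice, chosen by their sample titles and paired by replicate number. Both populations came from wild-type FVB/N-J mice with no treatment named. The series also holds 2 pregnant P4 arrays, 2 arrays each of virgin P5, P6 and P4, and 1 array each of GFPhi and GFPlo cells from virgin L2G85 mice, which carry a luciferase transgene. Cells were dissociated from the gland and sorted by flow cytometry. The titles give P5 the gate CD24+CD29hi, which P4 has too, and P6 the gate CD24lo. By source name P5 is the luminal-progenitor-enriched fraction and P6 the differentiated mammary epithelial fraction. The stage of pregnancy, the age of the animals and the number of animals behind each array are not given in the labels, nor whether the replicates came from separate animals. The p-values therefore reflect the variation among these samples alone, and that variation may be technical.

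Each array carried Cy5-labelled RNA of the sorted cells beside Cy3-labelled Universal Mouse Reference RNA, a commercial mix from mouse cell lines. Values are log2(Cy5/Cy3), called log ratios here. A value above 0 means that a spot was brighter for the sorted cells than for the mix. Differences are P5 minus P6 in log2 units, from a limma model that holds the replicate pairs as blocks, with a standard error (SE) and a Benjamini-Hochberg adjusted p over all genes. A gene passed at an adjusted p under 0.05. Log ratios of the 2 P5 arrays correlated at 0.888 across genes, those of the 2 P6 arrays at 0.816, and those of a P5 with a P6 array at 0.249 to 0.382. Genes are not independent replicates, so these are descriptions.

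In pregnancy, luminal cells of the mammary epithelium line new alveoli and turn into secretory cells. These make caseins, whey proteins and lactose, build milk fat from glucose and bring calcium and water into the milk. Prolactin, acting through its receptor and the transcription factor STAT5, drives this change together with the factors Elf5 and Gata3. Around the epithelium lie fibroblasts, which lay down collagens and other matrix proteins and release the proteases that remodel them, besides adipocytes, vessels and immune cells.

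The promoter sequences of 6 genes are shown: 3 of milk proteins, 2 of the enzymes with the most positive differences, and 1 of a matrix protease among the genes with the most negative ones. The 3 milk protein genes did not pass in this comparison by log ratio (limma adjusted p = 0.177 to 0.81). Each is the stretch of 250 bases before the annotated start in RefSeq on GRCm38.p6, given on the strand of the gene. Capitals mark a match to a textbook motif found on either strand. Windows were picked because they hold a match, so the match itself is no finding. The first motif is TTCNNNGAA, the letters bound by STAT factors, which 7.02% of all 32851 windows held, and 3 of the 6 windows of caseins and whey proteins. They belong to Csn1s1 (chr5:87665958-87666207, plus strand), Csn2 (chr5:87699426-87699675, minus strand) and Glycam1 (chr15:103565082-103565331, minus strand), with the match starting 100, 93 and 145 bases before the start.
Csn1s1: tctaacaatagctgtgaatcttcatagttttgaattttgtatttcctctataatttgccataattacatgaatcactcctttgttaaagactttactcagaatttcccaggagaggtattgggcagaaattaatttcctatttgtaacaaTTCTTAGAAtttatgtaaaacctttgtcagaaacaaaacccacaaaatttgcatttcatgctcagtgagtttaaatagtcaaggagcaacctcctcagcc
Csn2: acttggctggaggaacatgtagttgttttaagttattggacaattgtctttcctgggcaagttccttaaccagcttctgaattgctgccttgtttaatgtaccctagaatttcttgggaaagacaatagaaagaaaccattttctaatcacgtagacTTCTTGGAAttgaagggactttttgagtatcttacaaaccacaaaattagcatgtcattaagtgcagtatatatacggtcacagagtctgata
Glycam1: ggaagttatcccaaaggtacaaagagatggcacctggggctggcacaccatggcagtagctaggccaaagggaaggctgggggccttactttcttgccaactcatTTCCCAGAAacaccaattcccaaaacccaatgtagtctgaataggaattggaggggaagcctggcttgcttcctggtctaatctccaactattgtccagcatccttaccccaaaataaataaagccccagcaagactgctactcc
The second is TCACNCCAC, a sterol regulatory element of SREBP factors, held by 1.05% of all windows. It lay in 1 of the 2 windows of Acsl1 (chr8:46490716-46490965, plus strand) and 1 of the 2 of Aldoc (chr11:78322823-78323072, plus strand), starting 76 and 80 bases before the start. In Acsl1 it reads on the other strand.
Acsl1: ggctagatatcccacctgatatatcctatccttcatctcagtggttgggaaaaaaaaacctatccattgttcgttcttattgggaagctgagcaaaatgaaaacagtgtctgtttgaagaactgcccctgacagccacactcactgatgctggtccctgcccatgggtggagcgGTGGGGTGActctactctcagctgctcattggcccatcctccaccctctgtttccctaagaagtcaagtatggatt
Aldoc: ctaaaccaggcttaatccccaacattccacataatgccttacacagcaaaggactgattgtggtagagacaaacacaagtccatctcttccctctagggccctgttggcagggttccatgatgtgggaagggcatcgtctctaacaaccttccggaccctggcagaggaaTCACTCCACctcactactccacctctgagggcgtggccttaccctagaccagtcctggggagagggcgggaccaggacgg
The third is TGANTCA, a loose form of the AP-1 motif that takes any base in the middle, where the usual site has C or G. This form was held by 6.75% of all windows and by 3 of the 17 windows of the matrix proteases and their inhibitors. In Mmp3 (chr9:7445572-7445821, plus strand) it starts 46 bases before the start. The Csn1s1 window holds the loose form as well, but with A in the middle, so not the usual AP-1 site.
Mmp3: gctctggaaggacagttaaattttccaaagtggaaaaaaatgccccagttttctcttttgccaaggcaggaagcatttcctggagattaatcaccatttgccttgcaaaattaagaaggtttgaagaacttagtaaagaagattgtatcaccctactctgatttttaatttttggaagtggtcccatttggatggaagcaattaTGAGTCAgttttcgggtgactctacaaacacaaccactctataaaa
A match is a description and not evidence of binding. None of the 20 windows of the fatty acid synthesis genes held the STAT or the SREBP letters, which says only that these letters are not in those windows.

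The arrays of replicate 1 and replicate 2 were scanned differently, and this touches the brightest genes. On the replicate 1 arrays Cy5 of saturated spots read at most 64386, while the replicate 2 arrays reached 622336. Saturated Cy5 spots numbered 111 and 15 on the P5 arrays (replicate 1 and 2) and 199 and 0 on the P6 arrays. In pregnant P5 and P6, replicate number, slide and scan coincide, so pairing by replicate removes all 3 at once and they cannot be told apart. Of genes lower in P5 with a saturated P6 spot, 55 in number, the median difference was -4.56 in pair 1 and -5.76 in pair 2, and it was smaller in pair 1 for 45 of them. For the 54 genes higher in P5 with a saturated P5 spot it was 0.99 in pair 1 and 2.01 in pair 2. Of these, 27 were saturated in P5 only, with medians of 2.81 in pair 1 and 3.78 in pair 2, and 27 in both populations, with medians of 0.551 and 0.798. In all, 64 genes were saturated on replicate 1 of both populations, and their differences there bunched around a median of 0.551. With saturated spots left out, 10 of the 139 genes named here that passed moved by more than 1.5-fold, and none changed direction. Most of the 139 had no saturated spot on these 4 arrays, so there was nothing to leave out for them there. Many were also named for their large differences. The 10 of 139 is therefore not the share moved among genes with saturated spots. Over all genes the 2 pairs of differences correlated at 0.911. P6 replicate 2 was the dimmest of the 4 arrays, with 69.5% of probes well above background in Cy5 against 77.6% to 83.4% on the others.

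**Figure D1:**
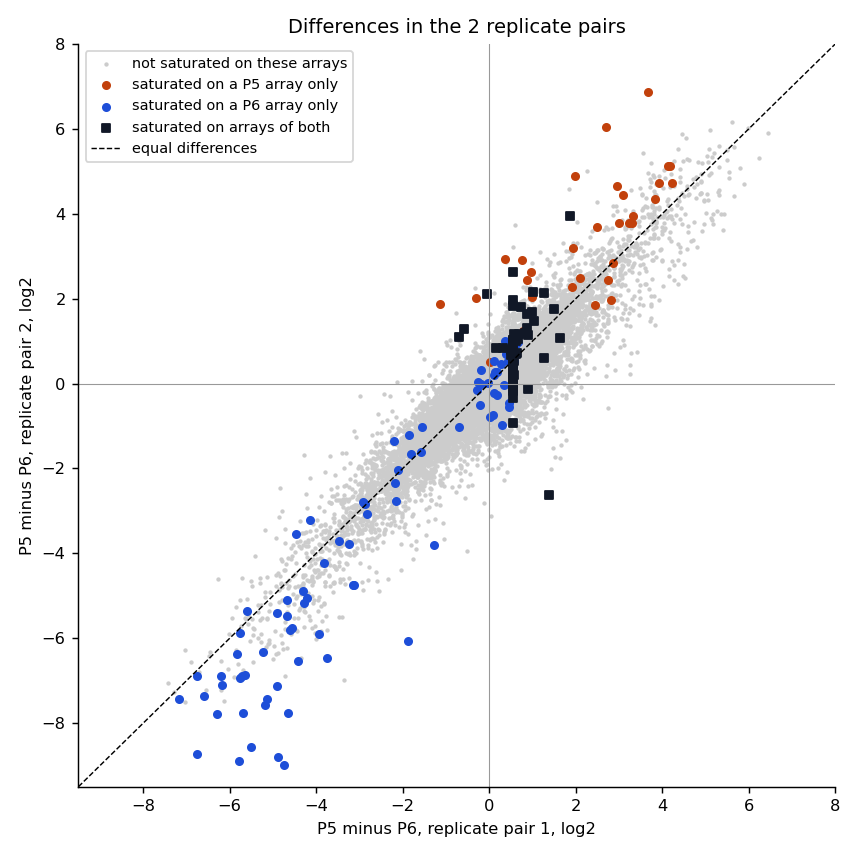
Each point is a gene, at its P5 minus P6 difference in replicate pair 1 (x axis, log2) and in replicate pair 2 (y axis, log2). Grey points were not saturated on these 4 arrays, coloured points were saturated in Cy5 on a P5 array, a P6 array or arrays of both. Of the 55 genes that were lower in P5 and saturated on P6 replicate 1, 45 had a smaller difference in pair 1 than in pair 2 and so lie below the diagonal, with medians of -4.56 in pair 1 and -5.76 in pair 2. Genes saturated in both form a narrow column near 0.551 in pair 1.

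P5 and P6 of pregnant mice differed in 10471 of 23644 genes tested (44.3%). Of these, 5663 were higher in P5 (24% of the genes tested) and 4808 lower (20.3%), and 4857 differed by at least 2-fold. Changes of at least 8-fold were found in 301 genes higher and 507 genes lower in P5. No gene that passed had opposite signs in the 2 pairs. Without the replicate block 6369 genes passed, all of them among the 10471. For a gene measured on every array the block alters the spread but not the difference. The direction was therefore the same by design. The median difference over all genes was 0.0472. In 13677 genes (57.9%) the 2 P5 arrays did not overlap the 2 P6 arrays, so non-overlap alone says little about a gene. For genes with several probes the brightest was used. Of the probes not used, 24.9% had a difference of opposite sign among all genes that passed, 18.3% among those that passed by at least 2-fold and 8.84% among those that passed by at least 8-fold.

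The most positive differences were those of the enzymes Acsl1 and Aldoc. Acsl1, which activates long-chain fatty acids for lipid synthesis, had log ratios of 6.24 and 6.02 in P5, against -0.19 and 0.12 in P6. Its difference was 6.17 (SE 0.164, adjusted p = 8.1e-07), 71.8-fold. Aldoc, a glycolytic aldolase, stood at 4.35 and 4.84 in P5, against -1.62 and -1.17 in P6, a difference of 5.99 (SE 0.19, adjusted p = 1.42e-06). For both enzymes the pairs nearly coincided and the populations lay far apart. Cldn8, a tight junction claudin, followed at 6.36 and 7.83 in P5, against 0.74 and 1.66 in P6 (5.89, SE 0.255). Cd24a, which encodes the surface protein of the sort, stood at 3.90 and 3.59 in P5, against -2.34 and -1.72 in P6 (5.77, SE 0.259), so the RNA followed the label of P6. Plet1, a surface protein of epithelial progenitors, was 5.62 higher. Gldc, the glycine decarboxylase of mitochondria, was 5.54 higher, Bspry, an epithelial B-box protein, 5.50, and Bhlha15, a transcription factor of secretory cells known as Mist1, 5.45. St6gal1, which adds sialic acid to glycoproteins, was 5.44 higher, the potassium channel gene Kcnk1 5.32 and the lipid transporter gene Mfsd2a 5.31. Cyp3a41a, of a family of near-identical cytochrome genes that a probe may not tell apart, was 5.37 higher. The adjusted p of these 10 genes, from Cldn8 on, ran from 6.55e-07 to 4.53e-06.

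At the other pole stood a matrix protease and a collagen. Mmp3, the matrix metalloprotease stromelysin, was at -1.59 and -1.83 in P5, against 5.17 and 6.89 in P6, a difference of -7.74 (SE 0.379, adjusted p = 5.59e-06). Its P6 replicate 1 spot was saturated, and with saturated spots left out the difference was -8.50. Col1a1, a chain of type I collagen, was at -2.28 and -2.94 in P5, against 3.50 and 5.97 in P6 (-7.34, SE 0.636, and -8.78 without saturated spots). Here P6 replicate 1 was the lower of the P6 arrays, and both P5 arrays lay far below either. Itm2a, a membrane protein of mesenchymal cells, was at -7.30 and Fndc1, a fibronectin-domain protein, was at -7.28, although its other probe showed 0.03. C1ra, a serine protease of the complement cascade, was at -2.58 and -2.53 in P5, against 4.71 and 4.73 in P6 (-7.27, SE 0.167). The matrix proteins Efemp1 (-7.24), Nid1 (-7.05), Fbn1 (-6.88) and Col3a1 (-6.86), the proteoglycan Dcn (-7.04), the procollagen protease Adamts2 (-6.97) and the actin-severing Gsn (-6.84) completed the 12 most negative genes. The adjusted p of the 12 ran from 3.23e-07 to 0.000496.

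The sizes and the order of these 12 are not settled, because the P6 replicate 1 spot was saturated for Itm2a, Nid1, Dcn, Adamts2, Col3a1 and Gsn as well as for Mmp3 and Col1a1. In pair 2, where none of them was saturated, the difference was -8.98 for Col3a1, -8.90 for Col1a1, -8.79 for Gsn, -8.72 for Mmp3 and -8.56 for Dcn. The Cy3 channel, which holds the same RNA mix on every array, also differed for some of them. Cy3 of Col1a1 was 7.53 and 2.34 times as bright in P5 as in P6 in pairs 1 and 2, and that of Gsn 7.24 and 2.7 times, which makes their log ratio differences more negative. Cy5 alone means here the Cy5 level after loess and after quantile normalisation of the average of both channels between arrays. Cy3 still enters through that normalisation. With Cy5 alone the difference was -5.29 for Col1a1 (adjusted p = 0.00318), -5.36 for Col3a1 (0.00367) and -4.72 for Gsn (0.00744), with the saturated spots included. By the same measure it was -7.57 for Mmp3, whose Cy3 was 0.969 and 1.16 times as bright in P5 as in P6.

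**Figure D2:**
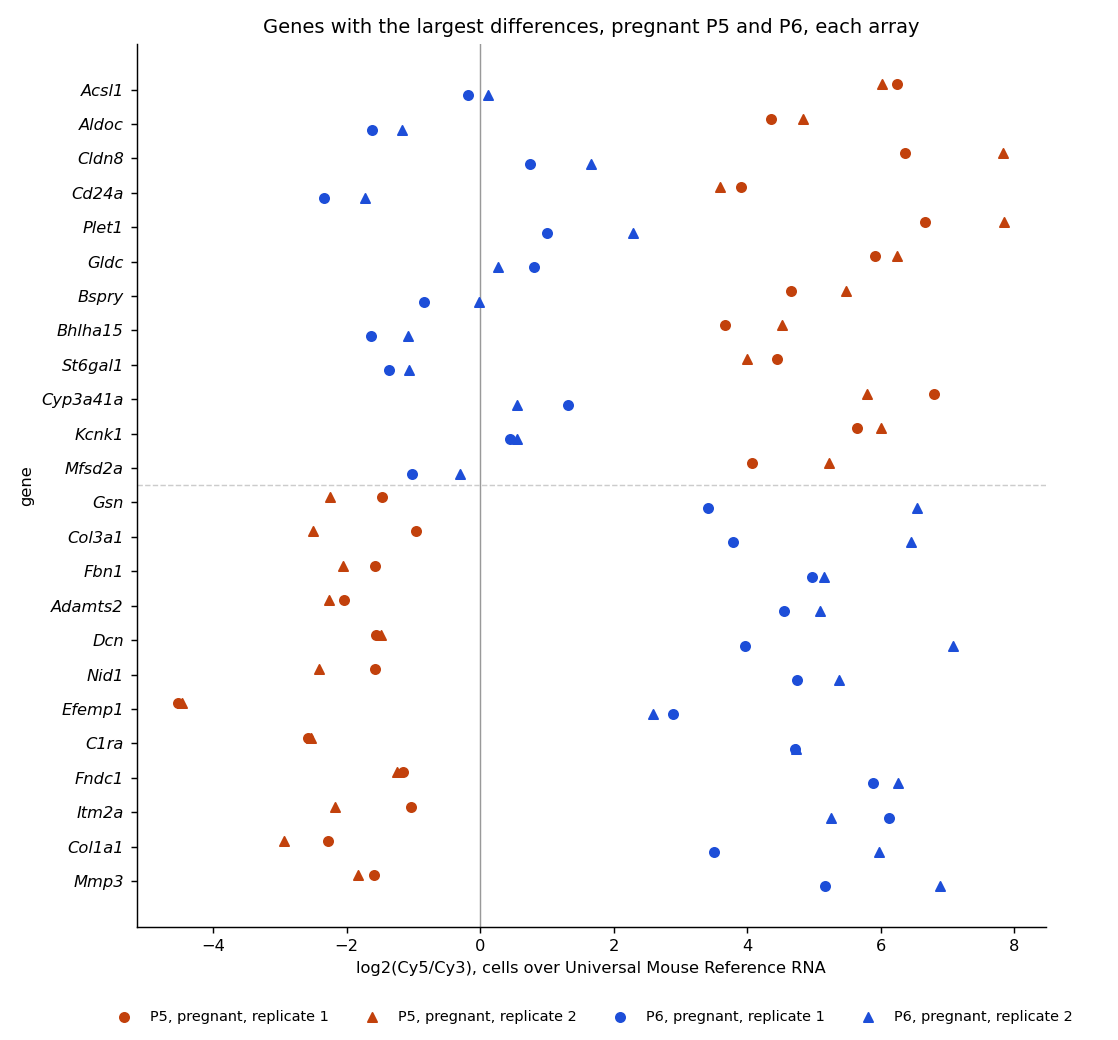
Log2(Cy5/Cy3) (x axis) of the 12 genes with the most positive and the 12 with the most negative differences, on each of the 4 arrays. Orange points are P5 and blue points P6 of pregnant mice, circles replicate 1 and triangles replicate 2. No gene shown has overlapping populations, and the P6 circles of Col1a1, Dcn, Col3a1 and Gsn lie left of their triangles.

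The labels of both populations were checked against markers. Of 27 general luminal and epithelial genes 25 were higher in P5, none was lower and 2 did not pass, with a median difference of 2.83. Krt8, a luminal keratin, was at 0.40 and 1.55 in P5, against -3.77 and -3.08 in P6 (4.40, SE 0.281, adjusted p = 1.75e-05). Its partner keratin Krt18 was 4.14 higher, from 3 arrays, since its spot on P5 replicate 2 was missing. The adhesion protein gene Epcam was 4.58 higher, the claudin gene Cldn7 5.26 and Lsr, a protein of tricellular junctions, 4.63. Of 23 fibroblast genes, all 23 were lower in P5, with a median of -5.34. Their median log ratio was -1.52 and -2.02 in P5, against 3.78 and 4.76 in P6. Pdgfra, a receptor that marks fibroblasts, stood at -3.46 and -3.84 in P5, against 3.43 and 2.72 in P6 (-6.72, SE 0.156, adjusted p = 6.5e-07). The RNA of P6 thus went against its source name of differentiated mammary epithelial cells, and the population is called P6 or CD24-low here. In such bulk RNA, fewer cells of a type and less RNA per cell cannot be told apart. The lists here and below were chosen with earlier results of these data known, so their counts describe these arrays and are read against the 24% and 20.3% of all genes.

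Genes of the luminal subtypes did not move as 1 group. Of 13 luminal progenitor genes 8 were higher, 2 lower and 3 did not pass, and 5 were higher without the replicate block. Sox10, a transcription factor of these cells, stood at 3.26 and 3.83 in P5, against 0.21 and 0.68 in P6 (3.1, SE 0.141). Kcnn4, a calcium-activated potassium channel, was 4.99 higher and the lipopolysaccharide co-receptor Cd14 4.07 higher. The receptor gene Kit, used to sort luminal progenitors, was 0.98 higher (adjusted p = 0.0106), and it lost its call without the replicate block (adjusted p = 0.129), without P5 replicate 2 (0.105) and without P6 replicate 2 (0.0601). Aldh1a3, an aldehyde dehydrogenase of luminal progenitors, ran the other way at 0.33 and 2.28 in P5, against 4.14 and 6.66 in P6 (-4.09, SE 0.209). A second probe of Aldh1a3, used when both channels had to be above background, gave -0.40 (adjusted p = 0.162). Of 15 hormone-sensing luminal genes 1 was higher, 3 were lower and 11 did not pass, with a median of 0.0384. The progesterone receptor gene Pgr, the factor Foxa1 and the surface protein gene Prom1 were not well above background on any of the 4 arrays. Among the 3 lower, Tbx3, a transcription factor, was at -1.58 and -1.41 in P5, against 1.42 and 1.32 in P6 (-2.87, SE 0.127). S100a6, a calcium-binding protein, was at -3.52, with its P6 replicate 1 spot saturated. The estrogen receptor gene Esr1 was at -1.5, although its other probe showed 0.15, and its call was lost without the replicate block (adjusted p = 0.096), without P5 replicate 1 (0.0672) and without P6 replicate 2 (0.0607).

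The genes of the caseins and whey proteins were at the upper end of the scanner, where many spots were saturated. By log ratio 3 of 8 were higher in P5 and 5 did not pass, with a median of 0.938, and of 0.0504 in pair 1 and 2.06 in pair 2. Without P6 replicate 1 all 8 passed as higher and the median was 2.03, whereas without P6 replicate 2 the median was -0.0127 and 1 passed as lower. Lalba, the whey protein that steers lactose synthesis, was at 4.39 and 5.42 in P5, against 0.43 and 2.25 in P6 (3.57, SE 0.268, adjusted p = 3.77e-05). Csn3, the casein that stabilises milk micelles, was at 6.57 and 8.17 in P5, against 3.57 and 4.39 in P6 (3.39, SE 0.216). Csn1s2b was 1.65 higher (adjusted p = 0.031), but lost its call in 13 of 29 alternatives. Its arrays overlapped, at 5.53 and 9.42 in P5, against 5.17 and 6.48 in P6, and its P5 replicate 1 spot was saturated. Without P5 replicate 2 the difference was 0.56 and without P6 replicate 2 it was 0.81. For Csn2, beta-casein, the log ratios were 7.62 and 12.09 in P5, against 7.68 and 9.99 in P6 (1.02, adjusted p = 0.177). Pair 1 showed no gap and pair 2 a gap of 2.11, and without P6 replicate 1 the gene passed at 2.16 (adjusted p = 0.00416).

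The intensities of the same spots before any correction were compared channel by channel. Cy5 of Csn2 read 64386 and 620478 in P5, against 64385 and 33292 in P6, with 3 of the 4 spots saturated. On the replicate 2 arrays, where the P5 spot was saturated and the P6 spot was not, P5 was thus at least 18.6 times as bright as P6. Such ratios are not corrected for the brightness of the arrays, whose median Cy5 was 104 on P5 replicate 2 and 75.3 on P6 replicate 2. Wap, the whey acidic protein, read 64386 and 604941 in P5, against 43071 and 6633 in P6, and was at least 91.2 times as bright in P5 on the replicate 2 arrays, its P5 spot being saturated there too. The Cy3 channel, which holds the same mix of RNA on every array, moved with it. Cy3 of Wap read 3217 and 3915 in P5, against 429 and 192 in P6, 7.5 and 20.4 times as bright in P5. For Csn3 the Cy3 reading was 588 and 736 in P5, against 50.4 and 50 in P6. What raised the Cy3 of these spots was not tested, but dividing by it lowers the P5 log ratio. The log ratio of Wap was accordingly 4.21 and 8.26 in P5, against 5.35 and 6.39 in P6, a difference of 0.37 (adjusted p = 0.66), positive in pair 2 and negative in pair 1. It passed as higher without P6 replicate 1 (1.66, adjusted p = 0.00462) and as lower without P6 replicate 2 (-0.93, adjusted p = 0.0427).

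An alternative chosen after these intensities were seen was Cy5 alone, normalised as above, so Cy3 still enters through the average of both channels. By it 8 of the 8 milk protein genes were higher in P5, with a median difference of 3.26. Wap was then 3.71 higher (adjusted p = 0.00884), Csn1s1, an alpha-casein, 2.82 (0.0182), Csn2 2.39 (0.018) and Lalba 6.33 (2.07e-05). Over all genes this alternative called 10608 genes, close to the 10471 of the log ratios. Of the 139 genes named here that passed by log ratio, 24 moved by more than 1.5-fold with Cy5 alone, and none lost its call or changed direction. Where the P5 spot was saturated on both arrays and no P6 spot was, the normalised Cy5 level gives a lower bound. On the scale of that normalisation the bound was 13.1-fold higher in P5 for Wap and 7.05-fold for Csn1s1. For Csn2, Csn1s2a and Glycam1 the P6 replicate 1 spot was saturated as well, so both populations have only a minimum there and no fold is given over the 2 pairs. As scanned, before any correction or normalisation, Cy5 on the replicate 2 arrays was at least 4.46 times as bright in P5 for Csn1s2a and 21.2 times for Glycam1. These ratios are not on the scale of the bounds above and also carry the difference in brightness between the 2 arrays. Both genes were picked after their values were seen. By log ratio the adjusted p was 0.192 for Csn1s1 (0.000968 without P6 replicate 1), 0.0922 for Csn1s2a and 0.81 for Glycam1.

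**Figure D3:**
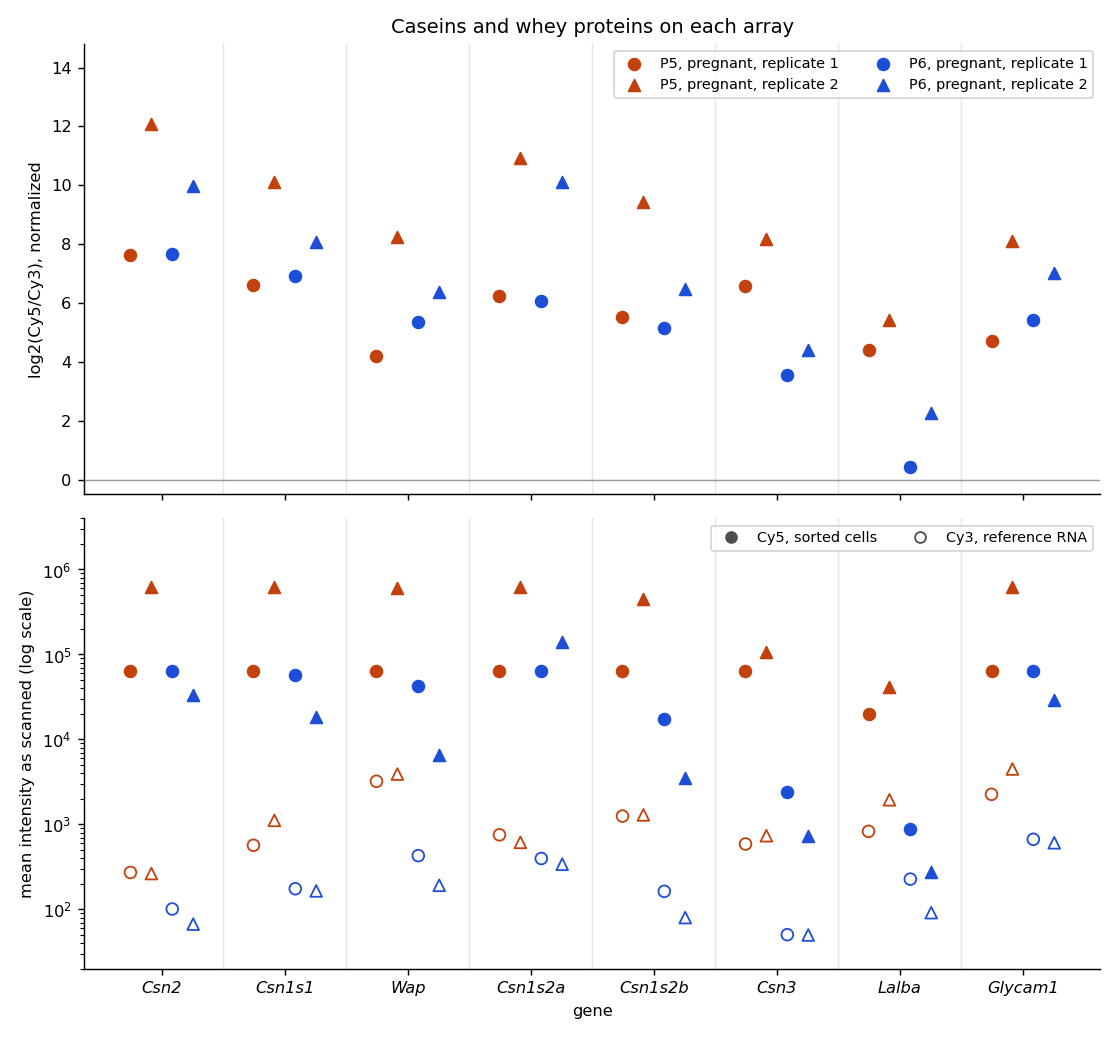
The 8 casein and whey genes on the 4 arrays. The upper panel gives log2(Cy5/Cy3), the lower panel the mean intensity as scanned on a log axis, filled for Cy5 and open for Cy3. P5 is orange and P6 blue, circles are replicate 1 and triangles replicate 2. Filled circles at the ceiling of 64386 are saturated spots, 7 of the 8 genes in P5 and 3 in P6, filled P5 triangles reach above the P6 triangles for every gene, and the open P5 symbols lie above the open P6 symbols.

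Genes for the coat of the milk fat globule, the droplet in which fat leaves the cell, were higher in P5 in 10 of 11 cases and lower in none, with a median of 2.85. Btn1a1, butyrophilin of the globule membrane, was at 2.95 and 3.74 in P5, against -0.06 and 1.04 in P6 (2.85, SE 0.131, adjusted p = 4.36e-06). Xdh, the xanthine oxidoreductase that binds it, was 2.73 higher, and Plin2, the coat of lipid droplets, 3.50. The P5 replicate 1 spot of Plin2 was saturated. Muc15, a membrane mucin, and Cd36, a fatty acid carrier, were both 4.05 higher, and Muc15 was 6.67 higher with Cy5 alone. Of 10 secreted defence genes of milk 8 were higher and 2 lower. Pigr, which carries antibodies of the IgA class into milk, was at 4.90 and 6.03 in P5, against 1.35 and 0.60 in P6 (4.49, SE 0.403). The acute-phase protein Saa1 was 4.75 higher and the iron-trapping lipocalin Lcn2 4.26. Spp1, osteopontin, was saturated on both P5 arrays. Its log ratio difference was 5.27 (adjusted p = 0.000581), and by the level of Cy5 alone it was at least 8.53-fold higher. The macrophage growth factor gene Csf1 was lower, at -2.34.

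Genes of fatty acid synthesis were higher in P5 along most of the path. Of 19 genes 16 were higher in P5, 1 was lower and 2 did not pass, with a median of 3.30. Acaca, whose carboxylase makes malonyl-CoA, the committed step, was at 4.54 and 4.53 in P5, against 0.27 and -0.14 in P6 (4.47, SE 0.164, adjusted p = 1.97e-06). Acly, which splits citrate into acetyl-CoA, was at 4.59 and 4.07 in P5, against 1.26 and near 0 in P6 (3.70, SE 0.193). Scd1, the desaturase that makes oleic acid, was at 5.69 and 5.74 in P5, against 1.52 and 0.61 in P6 (4.65, SE 0.216, adjusted p = 4.53e-06). The P5 replicate 1 spot of Scd1 was saturated, and with saturated spots left out the difference was 5.05. For these 3 enzymes both P5 arrays lay well above both P6 arrays. Fasn, the fatty acid synthase, was at 3.82 and 6.47 in P5, against 1.13 and 0.43 in P6 (4.37, SE 0.667). Its P5 replicate 1 spot was saturated, and it was 6.05 higher with saturated spots left out. Acss1, a mitochondrial acetyl-CoA synthetase, was the most positive of the list at 5.30. Mid1ip1, an activator of acetyl-CoA carboxylase, was the 1 gene lower (-0.82), and lost its call without either P5 array (adjusted p = 0.0756 and 0.0771) or without P6 replicate 2 (0.121).

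The step from fatty acid to triglyceride was less uniform, with 8 of 15 genes higher, 2 lower and 5 that did not pass (median 0.94). Beside Acsl1 the lipin gene Lpin1 was at 3.80 and 4.04 in P5, against 0.42 and 0.15 in P6 (3.63, SE 0.167). Dgat1, which adds the last fatty acid, was 2.23 higher, and Acsl4, a sister of Acsl1, 2.72. The 2 lower genes were Acsl3, another sister, at -0.73 (adjusted p = 0.014) and Agpat3 at -0.65 (adjusted p = 0.00648). Without the replicate block 1 gene of this list was lower. Cholesterol synthesis had 16 of 22 genes higher, 1 lower and 5 that did not pass (median 1.08). Pmvk (3.13), Insig1 (3.01), Mvd (3.01) and the squalene epoxidase Sqle (2.63) were higher. Srebf2, the transcription factor of this pathway, was lower at -1.71 by its brightest probe, but its other 2 probes showed 0.89 and 0.48.

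Glucose supply and mitochondrial carbon use moved the same way. Of 23 genes of glucose uptake, glycolysis and lactose synthesis 16 were higher and 1 lower (median 1.18). Slc2a1, the GLUT1 glucose transporter, was at 0.18 and 0.17 in P5, against -4.08 and -2.27 in P6 (3.35, SE 0.419, adjusted p = 0.000495). Tkt, the transketolase of the pentose pathway, was 3.64 higher, and B4galt1, the galactosyltransferase of lactose synthase, 2.35. The P5 replicate 1 spot of Tkt was saturated. The phosphofructokinase gene Pfkp was lower at -1.22. Of 16 genes of mitochondrial pyruvate and citrate use, 14 were higher and 1 lower (median 1.82). Pyruvate dehydrogenase was higher in each of its 3 named subunits, Pdha1 (3.72, SE 0.115), Pdhb (3.82, SE 0.125) and Dlat (3.63, SE 0.126), with adjusted p values from 1.27e-06 to 1.73e-06. Pcx, pyruvate carboxylase, was at 3.89 and 4.55 in P5, against 0.20 and 0.62 in P6 (3.81, SE 0.228). Idh1, the cytosolic isocitrate dehydrogenase, was the 1 lower gene (-2.19).

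Transporters of ions, calcium and water were higher in 12 of 17 genes and lower in none (median 1.62). Atp2b2, the calcium pump of the apical membrane, was at 4.59 and 5.87 in P5, against 0.38 and 0.94 in P6 (4.57, SE 0.206, adjusted p = 4.11e-06). The zinc and manganese carrier gene Slc39a8 was 4.82 higher. Slc12a2, a sodium-potassium-chloride cotransporter, was 1.40 higher and lost its call without the replicate block (adjusted p = 0.0757). Amino acid carriers were divided, 8 of 14 higher and 2 lower (median 0.609). Slc7a4 was at 3.92 and 4.36 in P5, against 0.13 and 0.21 in P6 (3.97, SE 0.119), and Slc7a5, a carrier of large neutral amino acids, was 1.78 higher, whereas the glutamine carrier gene Slc1a5 was at -1.91 and -1.65 in P5, against 0.87 and 0.72 in P6 (-2.57, SE 0.191).

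Genes of protein folding in the endoplasmic reticulum ran in both directions. Of 26, 6 were higher, 10 lower and 10 did not pass (median -0.118). Without the replicate block 3 were higher and 6 lower. Xbp1, a transcription factor of the unfolded protein response, was at 4.04 and 2.75 in P5, against 1.68 and -0.06 in P6 (2.58, SE 0.35, adjusted p = 0.000747). Sec61b, of the channel through which proteins enter the reticulum, was 1.44 higher. The chaperone gene Hspa5 stood at 0.71 and 0.12 in P5, against 0.71 and -0.26 in P6 (0.19, adjusted p = 0.343), with the populations overlapping. Creb3l2, a membrane-bound transcription factor, was lower at -2.38 and Herpud1, of protein degradation at the reticulum, at -2.14. Canx, the chaperone calnexin, was at -1.86, while its other probe showed 0.19.

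The regulators of alveolar differentiation were more often higher than lower in P5, with 8 of 16 higher, 4 lower and 4 that did not pass (median 0.93). The 4 lower were 1 without the replicate block or P6 replicate 1, and 2 without P5 replicate 1. Elf5, the transcription factor of alveolar cells, was at 6.97 and 7.87 in P5, against 2.05 and 2.67 in P6 (5.06, SE 0.197, adjusted p = 2.41e-06). With background subtracted and no offset its difference was 1.44 (adjusted p = 0.209). Gata3, which keeps luminal identity, was at 1.23 and 2.47 in P5, against -2.88 and -1.58 in P6 (4.08, SE 0.31). Stat5a was 2.44 higher, its target Cish 3.15 and the prolactin receptor gene Prlr 1.37 (SE 0.157). Socs1, an inhibitor of cytokine signalling, was at -1.47 and -0.76 in P5, against 0.64 and 1.74 in P6 (-2.31, SE 0.284).

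Markers of proliferation were higher in P5. Of 26 cell cycle genes 20 were higher, none lower and 6 did not pass (median 1.34). The count was 9 without the replicate block, 8 without P5 replicate 1 and 11 without P6 replicate 1. In this list their median log ratio was -1.36 and -1.13 in P5, against -3.11 and -2.16 in P6. Mki67, the Ki-67 antigen, was at -0.12 and -0.37 in P5, against -4.36 and -3.27 in P6 (3.56, SE 0.414, adjusted p = 0.000338). The ubiquitin-conjugating enzyme gene Ube2c was 2.30 higher. Top2a, a topoisomerase, was 1.83 higher and lost its call without P5 replicate 1 (adjusted p = 0.0983) and without P6 replicate 1 (0.0912). The reference is a mix of cell lines, and both populations lay below it in this list.

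The matrix genes were nearly all lower in P5. All 25 other collagens and collagen cross-linking genes were lower in P5, with a median of -4.36, and a median log ratio of -1.38 and -1.29 in P5, against 2.79 and 3.13 in P6. Serpinh1, the collagen chaperone, was at -2.79 and -2.73 in P5, against 2.40 and 4.84 in P6 (-6.38, SE 0.516). Sparc, a collagen-binding glycoprotein, was at -5.48, Col6a3 at -6.10 and Lox, the cross-linking oxidase, at -4.36. Col5a1 was at -6.82, although its other probe showed 1.99. The P6 replicate 1 spots of Serpinh1, Sparc, Col6a3 and Col5a1 were saturated, so these sizes are not settled. Cy3 of Serpinh1 was 2.66 and 1.6 times as bright in P5 as in P6 in pairs 1 and 2, and that of Col6a3 1.04 and 1.07 times. Elastic fibre, fibronectin and proteoglycan genes were lower in 21 of 24 (median -3.37). Ogn, a small proteoglycan, was at -3.31 and -3.40 in P5, against 3.73 and 2.88 in P6 (-6.67, SE 0.218), and elastin, Eln, was at -2.53. Tnc, tenascin C, was 1 of 2 genes of this list higher in P5, at 1.75 and 0.50 in P5, against -1.48 and -1.16 in P6 (2.45, SE 0.309, adjusted p = 0.000522).

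Matrix proteases and their inhibitors were lower in 21 of 27 genes, higher in 1 and not past the threshold in 5 (median -3.34). Mmp14, which activates other metalloproteases at the cell surface, was at -2.67 and -3.04 in P5, against 3.52 and 3.85 in P6 (-6.54, SE 0.20, adjusted p = 1.27e-06). Its P6 replicate 1 spot was saturated. Mmp2, a gelatinase, was at -5.22, and Timp1, an inhibitor of these enzymes, at -1.42 (SE 0.211). Mmp15, a membrane metalloprotease, was the 1 gene higher (0.92), and lost its call without the replicate block (adjusted p = 0.0553) and with local backgrounds as given (0.488).

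Genes of secreted growth signals were mostly lower in P5. The insulin-like growth factor axis had 9 of 15 genes lower and none higher (median -1.72). Igf1 was at 0.31 and 1.00 in P5, against 2.12 and 2.63 in P6 (-1.72, SE 0.411, adjusted p = 0.0114), and lost its call without P5 replicate 1 (0.115) and without P6 replicate 2 (0.098). The binding protein genes Igfbp6 (-4.04) and Igfbp4 (-3.73) were lower by more. Of 21 genes of TGF-beta and BMP signalling 14 were lower and 2 higher (median -1.14). Gdf10, a BMP-like ligand, was not well above background on either P5 array. Its log ratio difference was -4.25 (SE 0.185, adjusted p = 3.51e-06), 19-fold. Its level in Cy5 alone, normalised as above and not a ratio to Cy3, was at least 30.9-fold lower in P5. The BMP antagonist Chrd ran the other way, at 4.22 and 3.17 in P5, against 0.91 and 1.43 in P6 (2.53, SE 0.351).

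Of 23 genes of Wnt ligands, receptors and secreted antagonists 11 were lower, 3 higher and 9 did not pass (median -0.262). Wnt2, a ligand made by stroma, was at 0.13 and 0.31 in P5, against 5.06 and 6.70 in P6 (-5.66, SE 0.367, adjusted p = 1.87e-05). The receptor gene Fzd1 was at -5.28 and the antagonist gene Sfrp4 at -4.78. Wnt5b was at 1.41 and 3.17 in P5, against 0.49 and 0.92 in P6 (1.58, SE 0.28), and lost its call without the replicate block (adjusted p = 0.0769). Of 24 chemokine and cytokine genes 16 were lower and 3 higher (median -1.48). Ccl11, the eosinophil chemokine eotaxin, was at 0.99 and 0.78 in P5, against 5.89 and 7.13 in P6 (-5.62, SE 0.30). Ccl8 (-4.49), the alarmin gene Il33 (-4.09) and the monocyte chemokine gene Ccl2 (-2.81) were lower too, while Ccl28, a mucosal chemokine, was at 1.26 and 1.65 in P5, against 0.01 and 0.19 in P6 (1.36, SE 0.146), a call lost with local backgrounds as given (adjusted p = 0.0612). Complement genes split, 7 of 15 lower and 3 higher (median -0.513), with Saa3, an acute-phase protein, at 4.11.

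**Figure D4:**
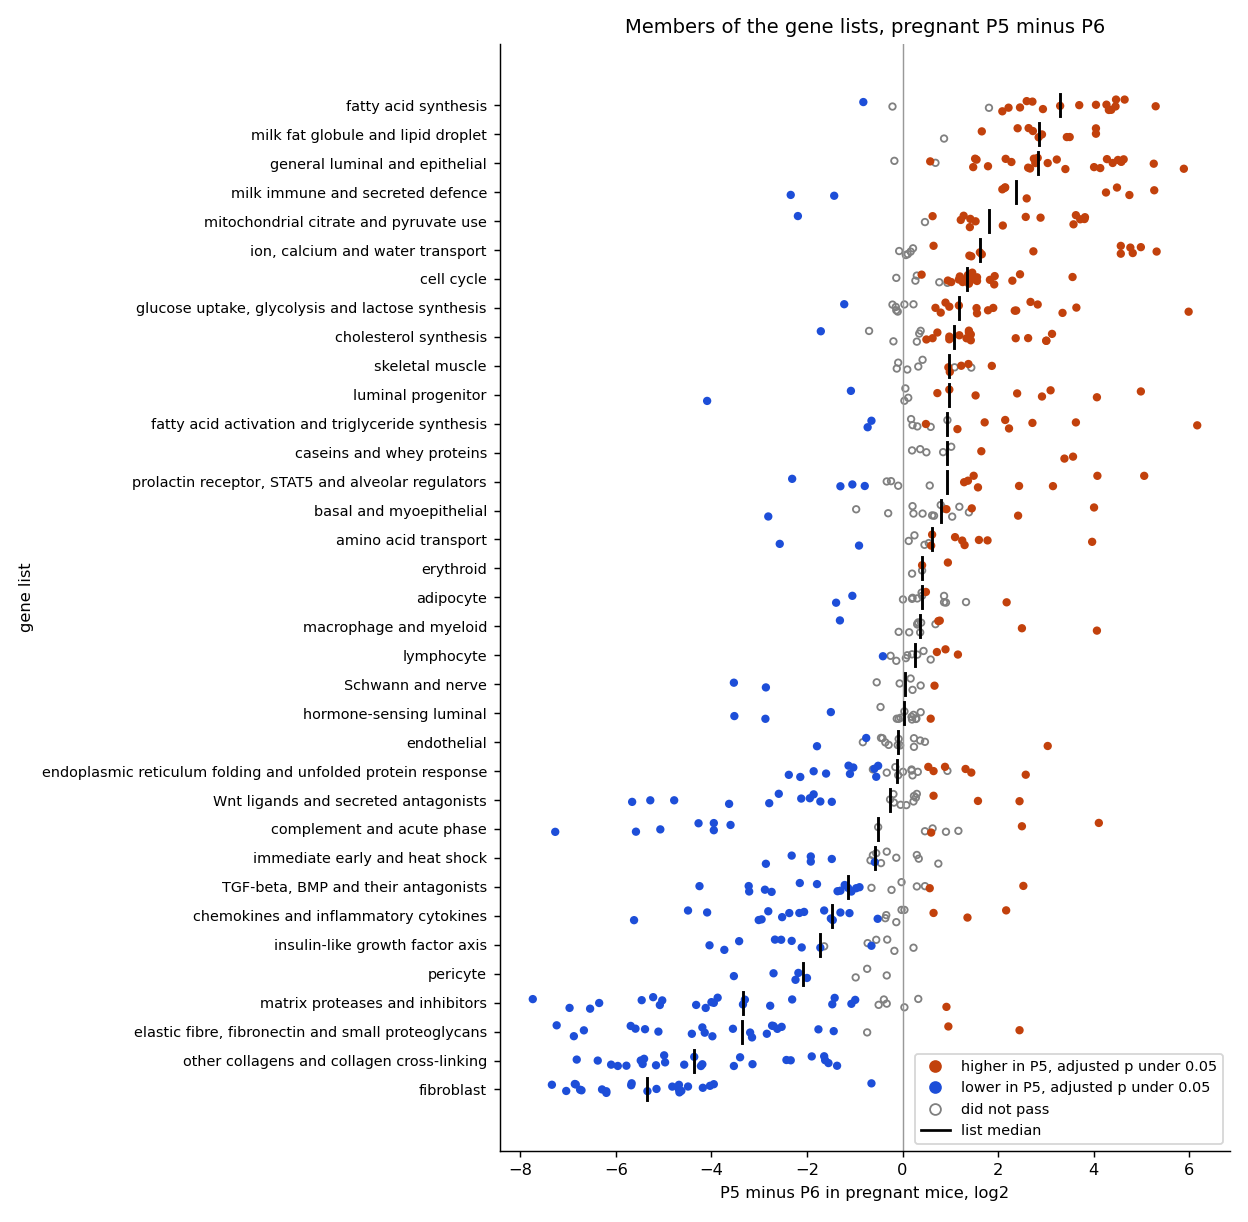
P5 minus P6 difference in pregnant mice (x axis, log2) for every tested member of the gene lists (y axis), ordered by list median, which the black bars give. Filled orange points passed higher in P5, filled blue points lower in P5, and open grey points did not pass. The medians of the milk fat globule, fatty acid and general luminal lists lie right of 0. The fibroblast (median -5.34) and collagen (median -4.36) lists lie left of it with every member filled.

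Other cell types that the gates could hold were measured as well. Of 17 basal and myoepithelial genes 4 were higher, 1 was lower and 12 did not pass (median 0.805), with 9 higher without P5 replicate 2 and 2 without P6 replicate 2. Without P5 replicate 1 the median was -0.0565. Their median log ratio was 1.49 and 1.39 in P5, against 0.669 and 1.01 in P6. The basal keratin Krt5 was at 2.94 and 2.62 in P5, against 1.35 and 1.83 in P6 (1.19, adjusted p = 0.0518, and 1.92 without P5 replicate 2, adjusted p = 0.0121), and Trp63, the basal transcription factor, overlapped between the populations (0.21, adjusted p = 0.703). Pericyte genes had 5 of 8 lower and none higher (median -2.09), at -0.796 in pair 1 and -3.07 in pair 2, with the channel gene Kcnj8 at 1.79 and 1.58 in P5, against 4.41 and 6.03 in P6 (-3.53, SE 0.37). Without P6 replicate 1 all 8 pericyte genes were lower. Endothelial genes had 1 of 15 higher and 2 lower, but 6 higher without P5 replicate 2, and 7 lower without P5 replicate 1 or 4 lower without P6 replicate 1. Their median turned with the pair, at 0.62 in pair 1 and -0.946 in pair 2. Cdh5, of endothelial junctions, was at 3.23 and 2.80 in P5, against 1.71 and 4.52 in P6 (-0.10, adjusted p = 0.923), with a difference of -1.41 without P5 replicate 1 and 1.21 without P5 replicate 2. Adipocyte genes had 2 of 14 higher and 2 lower (median 0.404). Without P6 replicate 2 there were 5 higher and none lower (median 0.913), and 1 was higher without P5 replicate 1, without P6 replicate 1 or without the replicate block. Fabp4, a fatty acid binding protein of adipocytes and vessels, was at 7.13 and 6.68 in P5, against 5.91 and 7.88 in P6 (0.01, adjusted p = 0.993), higher in P5 without P5 replicate 2 (1.62, adjusted p = 0.035) and lower without P5 replicate 1 (-1.60, adjusted p = 0.036).

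Markers of blood cells were measured in the same way. Of 13 macrophage and myeloid genes 4 were higher and 1 lower (median 0.367), with 2 higher without the replicate block, without P5 replicate 1 or without P6 replicate 1. The pan-leukocyte gene Ptprc was at -3.76 and -3.80 in P5, against -4.72 and -3.12 in P6 (0.14, adjusted p = 0.801), and the sign turned without P5 replicate 1 (-0.41) or P6 replicate 1 (-0.55). Cd14 (4.07), named above with the luminal progenitor genes, stands in the macrophage list too and is 1 of its 4 higher genes. The complement gene C1qa, made by macrophages, was at 2.01 and 3.64 in P5, against 0.31 and 0.33 in P6 (2.50, SE 0.317). Of 12 lymphocyte genes 3 were higher and 1 lower (median 0.254). Of 4 erythroid genes 2 were higher and none lower. Skeletal muscle genes had 5 of 12 higher (median 0.979), with a median of 1.59 in pair 1 and 0.193 in pair 2. Their count was 1 without P5 replicate 1 or P6 replicate 1, 8 without P6 replicate 2 and 3 without the replicate block. Among them was Tnnt3, a troponin, at 1.87, although its other probe showed -0.22. Schwann cell and nerve genes had 1 of 8 higher and 2 lower, Pmp22 (-3.53) and S100b (-2.86). Immediate early and heat shock genes, which dissociation can raise, were lower in 6 of 15 and higher in none (median -0.584), and lower in 3 without the replicate block. Egr1 was at -0.32 and 0.47 in P5, against 2.61 and 3.25 in P6 (-2.86, SE 0.196), with its P6 replicate 1 spot saturated. The part of these cells and of handling in the differences above was not tested.

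The other surface proteins of the sorts bear on the gates. Itgb1, which encodes CD29, was at -0.73 and -1.56 in P5, against 0.89 and -0.54 in P6 (-1.32, SE 0.193, adjusted p = 0.00109), and lost its call without the replicate block (adjusted p = 0.0791). Pair by pair P5 was below P6, whereas P5 is labelled as high in CD29. Thy1 (-5.15) and Ly6a (-2.47), surface proteins of stroma, and the hyaluronan receptor gene Cd44 (-1.28) were lower in P5, although another probe of Cd44 showed 0.56. The P6 replicate 1 spot of Thy1 was saturated. Itga6, the integrin CD49f of epithelium, was at 2.20 and 1.69 in P5, against -2.47 and -1.67 in P6 (4.01, SE 0.341).

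The same contrast was made in virgin mice, and the change between the conditions was tested. In virgin mice 6860 of 23643 genes differed between P5 and P6 (29%). Of the genes that passed in both conditions, 4556 had the same sign and 447 the opposite sign. The difference itself changed between pregnant and virgin mice in 5324 genes (22.5%), 2737 in the positive direction (11.6%) and 2587 in the negative (10.9%). Without the replicate block 1730 genes passed this test. The fibroblast list had a median of -5.34 in pregnant and -5.23 in virgin mice, and 3 of its 23 genes passed the test of the change. General luminal genes had medians of 2.83 in pregnant and 3.32 in virgin mice, with 3 changed upward and 8 downward. Fatty acid synthesis had a median of 3.30 in pregnant mice and 0.036 in virgin mice, and 16 of its 19 genes changed upward, with none downward.

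Single enzymes were tested for the change as well. For Acaca the difference was 4.47 in pregnant and 0.04 in virgin mice, a change of 4.43 (adjusted p = 7.68e-05). Scd1 was 4.65 higher in P5 of pregnant mice, with -0.35 in virgin mice, a change of 5.0 (adjusted p = 0.000122), and of 5.40 with saturated spots left out. For Acsl1 the difference was 6.17 in pregnant and 1.48 in virgin mice, a change of 4.69 (adjusted p = 7.33e-05), and for Aldoc 5.99 in pregnant and 3.29 in virgin mice, a change of 2.70 (adjusted p = 0.000784). Mmp3 had -7.74 in pregnant and -6.93 in virgin mice, a change of -0.82 that did not pass (adjusted p = 0.326). It passed at -1.57 without P6 replicate 1, whose spot was saturated (adjusted p = 0.0275), so no lack of change can be read from it. The mitochondrial list went with the fatty acid list, with medians of 1.82 in pregnant and 0.414 in virgin mice and 12 of 16 genes changed upward, and so did cholesterol synthesis, with medians of 1.08 in pregnant and -0.176 in virgin mice and 13 of 22 changed upward.

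Hormone-sensing luminal genes went the other way, with medians of 0.0384 in pregnant and 1.82 in virgin mice, and 11 of 15 changed downward. Tbx3 was lower in P5 of pregnant mice (-2.87) and had a difference of 1.77 in virgin mice, a change of -4.64 (adjusted p = 4.73e-05). For Foxa1, a pioneer factor of these cells, the virgin difference was 2.96 and the change -3.04 (adjusted p = 0.000545), with no pregnant array well above background. The change did not pass with the scanner's own log ratio (-2.53, adjusted p = 0.0788). The cell surface protease Mmp14 was lower in both conditions, at -6.54 in pregnant and -2.48 in virgin mice, a change of -4.07 (adjusted p = 0.000196). Its P6 replicate 1 spot of pregnant mice was saturated. Cd36 turned sign, with 4.05 in pregnant and -1.65 in virgin mice (change 5.70, adjusted p = 0.000199), and Tnc did so with 2.45 in pregnant and -1.67 in virgin mice (change 4.12, adjusted p = 0.000998).

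The 6 most positive changes were those of Kcnk6, Tent5c, Lpl, St6gal1, Gldc and Slc39a8. The potassium channel gene Kcnk6 was at 5.77 and 6.16 in P5, against 2.56 and 2.31 in P6 of pregnant mice (3.53), and the difference was -3.24 in virgin mice, a change of 6.77 (SE 0.525, adjusted p = 0.000304). Tent5c, which lengthens the tails of messenger RNAs of secreted proteins, had 4.64 in pregnant and -1.77 in virgin mice. Lpl, the lipase that frees fatty acids from blood lipids, was at 6.21 and 6.59 in P5, against 4.94 and 5.98 in P6 of pregnant mice (0.94, adjusted p = 0.0688, and 1.49 without P6 replicate 2, adjusted p = 0.0219), with a difference of -5.46 in virgin mice. Its replicate 1 spots were saturated in both. The 6 most negative were those of Stc2, AW112010, Cldn10, Phyh, Col8a1 and Il33. Stc2, a secreted glycoprotein, was at 2.07 and 2.12 in P5, against 3.98 and 4.44 in P6 of pregnant mice (-2.11), with 4.06 in virgin mice, a change of -6.18 (adjusted p = 4.73e-05). Cldn10, a pore-forming claudin, had -3.02 in pregnant and 2.59 in virgin mice.

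**Figure D5:**
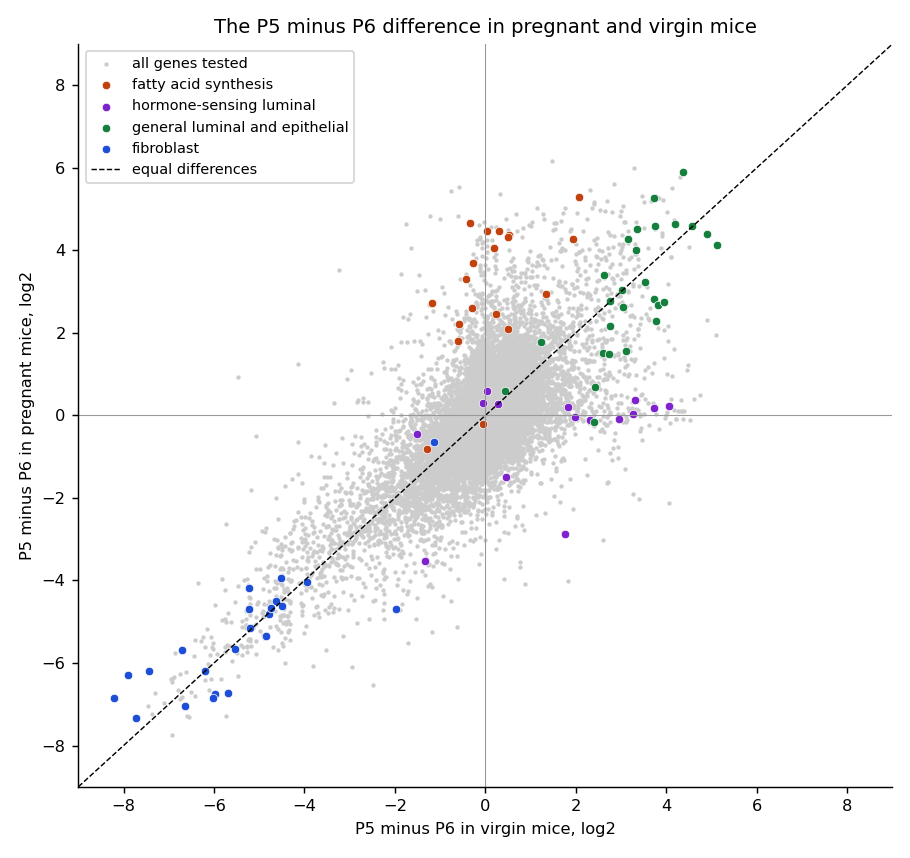
P5 minus P6 difference in virgin mice (x axis, log2) against that in pregnant mice (y axis, log2) for every gene tested (grey) and 4 lists in colour. The dashed line marks equal differences. Fibroblast genes lie near it (medians -5.34 in pregnant and -5.23 in virgin mice), fatty acid synthesis genes stand above it around 3.30 in pregnant and 0.036 in virgin mice, and hormone-sensing luminal genes lie below it.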

How the data were processed

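Gene expression was measured on 14 Agilent 2-colour arrays of sorted mouse mammary cells, 4 of which are compared here. Spot intensities were read with Agilent Feature Extraction 9.5.3.1, per the file headers and the submitters' processing notes. Linear mean and local background intensities of each channel stand in the deposited scanner files, and per the file headers the scanner's log10 ratio. Further deposited columns hold flags (other values, 0 or 1). The authors' series table holds log2 ratios close to the scanner's, with correlations from 0.9903 to 1 per array, column medians from -0.0182 to 0.102 and no stated centring. Dyes per the labels were Cy5 for the cells and Cy3 for the reference on every array.

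The analysis used R 4.3.3 and limma 3.58.1. Outlier local backgrounds were replaced by the array's median, the background was corrected by normexp (offset 50) and ratios were normalized by loess. Control and outlier spots were left out and saturated spots kept. A probe was kept if, in 1 or more of the 6 wild-type groups, each array had it well above background in Cy5 (34801 of 41174 probes), and the brightest of a gene's probes was kept (7717 genes had several). A RefSeq gene table named 22951 probes from their accession, 6659 from their symbol and 3109 from an older symbol; the file's own name stayed for 8455. The model took 12 arrays with 6 group means and a replicate block within each condition, leaving 4 residual degrees of freedom, and the threshold was a Benjamini-Hochberg adjusted p under 0.05. It also tested the change of the difference between pregnant and virgin mice. The labels give the replicate numbers. Deviations from group means of same-numbered arrays correlated at 0.63 to 0.688 in pregnant and 0.304 to 0.679 in virgin mice. Replicate number goes with the scan in both conditions, so these values cannot show that the samples themselves were paired. The limma fit of the pregnant contrast was tested on simulated normalised values with known changes, and the steps before it were not.

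Named genes are the 4 given markers, the 12 most positive and 12 most negative genes, the first 3 and the 3 largest called members in each direction of each list, the 6 most positive and 6 most negative changes between conditions, and the sorting surface proteins; exceptions are marked, and some genes under this rule are not reported here. The members, lists and several settings were chosen with earlier results of these data known. Bounds for saturated or dim spots come from the Cy5 channel after quantile normalization of average intensity, and for dim spots the other side is the higher of the array's lowest signal above background and the probe's own. Alternatives covered background, normalization, filters, probes, saturated spots, blocks, the arrays fitted and the Cy5 channel alone. The number of arrays and the median Cy5 intensity, 75.3 to 180 on the 4 arrays against local backgrounds of 33 to 34.5, limit the precision.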

Additional observations from a re-analysis of the deposited data

Results flagged for a closer look

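The P5 minus P6 difference itself differed between pregnant and virgin mice in 5324 genes by the interaction test of the limma model. The 12 named ones among them had changes that run in both directions. The change was 6.77 for Kcnk6, with 3.53 in pregnant and -3.24 in virgin mice, and 6.41 for Tent5c, with 4.64 in pregnant and -1.77 in virgin mice. Lpl changed by 6.40, with 0.94 in pregnant and -5.46 in virgin mice, and by 6.07 with saturated spots left out. St6gal1 changed by 6.21, with 5.44 in pregnant and -0.76 in virgin mice, Gldc by 6.13, with 5.54 in pregnant and -0.59 in virgin mice, and Slc39a8 by 6.04, with 4.82 in pregnant and -1.22 in virgin mice. In the negative direction the change was -6.18 for Stc2, with -2.11 in pregnant and 4.06 in virgin mice, and -5.85 for AW112010, with -4.03 in pregnant and 1.82 in virgin mice. It was -5.62 for Cldn10, with -3.02 in pregnant and 2.59 in virgin mice, and -5.43 for Phyh, with -2.03 in pregnant and 3.40 in virgin mice. Col8a1, a short-chain collagen, had -5.15, with -1.90 in pregnant mice (adjusted p = 0.0623 with no replicate block) and 3.25 in virgin mice, and Il33, the alarmin, had -4.96, with -4.09 in pregnant and 0.87 in virgin mice. Adjusted p values of the 12 ran from 4.73e-05 to 0.000874.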

How the results depend on the processing

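The count of 10471 genes for pregnant P5 minus P6 was 6444 with local backgrounds exactly as given, 7377 with median centring and 6369 with no replicate block. More genes were lower than higher in P5 with local backgrounds as given (3346 and 3098) and with median centring (3930 and 3447). Leaving out arrays gave 7839 to 10217. The count of 5324 for the change between conditions was 2867 with local backgrounds as given, 3249 with median centring and 1730 with no replicate block, and 2377 to 5011 with arrays left out, the lowest without virgin P5 replicate 1 (2377; 2701 without virgin P5 replicate 2 and 3517 without virgin P6 replicate 2). The cause of these moves was not tested, except that arrays left out mean fewer samples. The scanner's own log ratio and the series table moved the median of all genes to 0.164 and 0.165. Every alternative could be run, but the change between conditions has no value in fits without virgin arrays. Saturation and dim spots limit the sizes at both ends.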
